A study of Mus musculus with 12 samples.

Results

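The quantity described here is the genotype by drug interaction: for each gene, the log2 change with topotecan in Top1 cKO cultures minus the log2 change with topotecan in WT cultures. It used all 12 of the 12 RNA-seq libraries of mouse cortical neuron cultures, 3 for each combination of genotype (WT or Top1 cKO) and drug (vehicle, Veh, or topotecan, Topot), and it was computed for all 23893 genes of the count table. A positive value means that the level after topotecan, relative to vehicle, was higher in Top1 cKO than in WT, and a negative value means that it was lower.

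The cultures were made from cortex at embryonic day 13.5 to 15.5, on a strain labelled C57BL6 (C57BL6/J females in the growth protocol). The sample labels call the controls wild-type, whereas the study's methods state that both arms were Top1fl/fl neurons, whose floxed allele carries LoxP sites around exon 3. At day 3 in vitro (DIV 3) they received lentivirus carrying CaMKIIα-tdTomato (the WT groups) or CaMKIIα-tdTomato-P2A-CRE (the Top1 cKO groups), with 85 to 90% of cells transduced. At DIV 15 both arms were given 300 nM topotecan or vehicle (0.003% DMSO, which the topotecan cultures also contained) for 3 days. The CaMKIIα promoter drives expression in neurons, and which cells gave the Top1 counts left in the Top1 cKO cultures was not measured.

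TOP1, the type I topoisomerase encoded by Top1, nicks a DNA strand and lets it rotate, which releases the supercoils that a transcribing polymerase pushes ahead of itself. Topotecan is a camptothecin analog that binds TOP1 while it is covalently attached to the nicked DNA and keeps it there as a TOP1 cleavage complex. A cell without TOP1 therefore lacks both the relaxing activity and the protein that the drug traps. The comparison asks which transcript responses to topotecan differed when most of the Top1 transcript was gone.

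The libraries held 1730164 to 4583777 counts each. Levels are given as counts per 1000000 (CPM) of the normalized library size, and tests are edgeR quasi-likelihood tests with Benjamini-Hochberg adjustment (FDR) over all genes, called at an FDR of 0.01. Top1 itself lay between 117 and 163 CPM in the 6 WT libraries and between 27.1 and 44.0 CPM in the 6 Top1 cKO libraries, so the libraries matched their labels. Its level did not pass the test for topotecan in either genotype. Libraries that share a replicate number departed from their group means in the same direction, so the value with that number as a block is added wherever it changed a call. Summed neuronal markers ranged from 10684 to 15285 CPM over the 12 libraries.

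Without the block, 95 genes had a positive interaction (0.398% of the genes tested) and 9 a negative one (0.0377%). With the replicate block these counts were 583 (2.44%) and 365 (1.53%), and all 95 and all 9 genes were called again. Of the 95 genes, 89 fell with topotecan in WT and were not called in Top1 cKO, 3 fell in both genotypes (Cadm2, Nrg3 and Opcml), and 3 were called in neither (Efr3a, Slc38a2 and Znrf1). The block changed some of these classes: Efr3a, Slc38a2 and Znrf1 fell in WT and rose in Top1 cKO, and Ctnna2, given as an example from the 89, also fell in Top1 cKO. The change in Top1 cKO was the smaller of the 2 in 94 of the 95, the exception being Slc38a2. In 27 of the 95 the Top1 cKO-Topot libraries lay below all Top1 cKO-Veh libraries, and in 10 above them all. How many of all genes separate in this way is not given here, so these counts are descriptions. With the block 473 of the 583 fell in WT and were not called in Top1 cKO, and 66 fell in both. All 9 negative genes rose in WT, and none was called in Top1 cKO. Without the block, single libraries moved the count of positive genes: it was 48 without WT-Topot replicate 1, 50 without WT-Topot replicate 3 or without Top1 cKO-Topot replicate 1, 63 without Top1 cKO-Veh replicate 2 and 51 when WT-Veh replicate 2 was left out.

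Each genotype's own response to topotecan gives the frame. In WT, 154 genes rose (0.645% of those tested) and 496 fell (2.08%), and with the replicate block 748 rose (3.13%) and 1198 fell (5.01%). In Top1 cKO, 0 genes rose and 7 fell (0.0293%). At an unadjusted p under 0.05 there were 396 and 692 of the 23893 genes, against 1400 and 1752 in WT. Many genes reach such a p with no effect, so the unadjusted counts are not read as a response. With the replicate block 54 rose (0.226%) and 223 fell (0.933%) in Top1 cKO, and without the block DESeq2 called 6 and 49, while limma-voom and a filter on low counts called 0 in both directions. The total in WT was 428 without WT-Topot replicate 1, and that in Top1 cKO ranged from 1 without Top1 cKO-Topot replicate 1 to 23 without Top1 cKO-Veh replicate 3. Over the 496 genes that fell in WT, the change in Top1 cKO was at the median 19.2% of the same gene's change in WT on the log2 scale. Genes were chosen here by their change in WT, which enters that share. Of the 154 that rose in WT, the median change in Top1 cKO was 0.01 on the log2 scale.

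**Figure D1:**
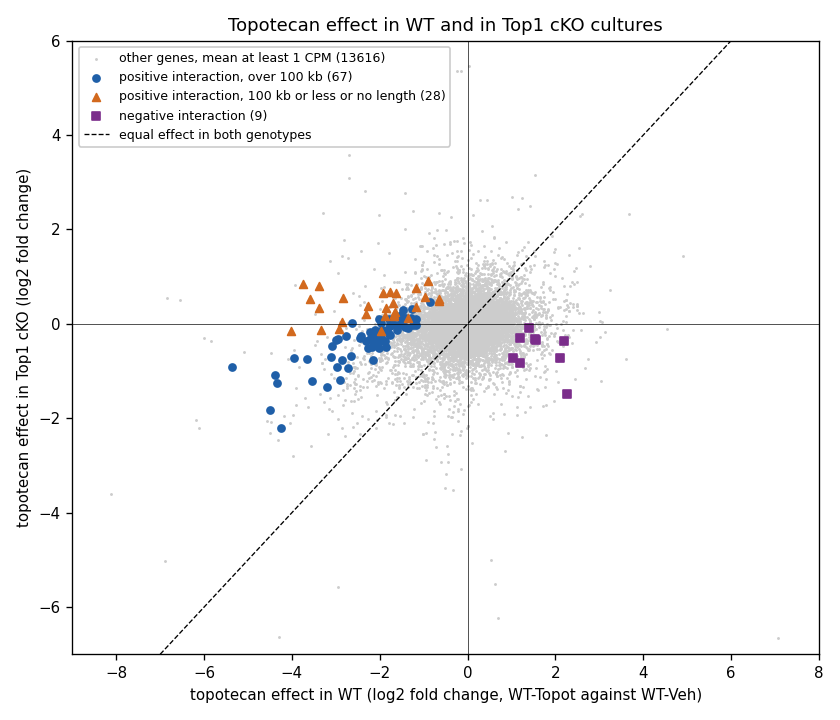
Log2 fold change with topotecan in WT (horizontal axis) and in Top1 cKO (vertical axis) for the 13720 genes that averaged 1 CPM or more. The dashed line marks equal effects in both genotypes. The 95 genes with a positive interaction lie above it on the left, most of them close to an effect of 0 in Top1 cKO, and the 9 with a negative interaction lie below it on the right.

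The positive genes fell into a long and a short class. Of the 95, 67 spanned over 100 kb, 27 spanned 100 kb or less, and Mir8115 had no length. The long class had a median interaction of 1.78, with a median change of −2.04 in WT and −0.26 in Top1 cKO, and 52 of the 67 values in Top1 cKO were below 0. The short class had a median interaction of 2.19, with a median change of −1.85 in WT and 0.38 in Top1 cKO, and 24 of its 27 values in Top1 cKO were above 0. The long class includes adhesion molecules, channels and synaptic proteins, and the short class includes genes whose transcription follows neuronal activity. No test compared the classes, whose effects enter the rule that chose them.

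Neuronal activity raises calcium in the nucleus and, through kinases that act on transcription factors such as CREB and SRF, switches on immediate early genes (IEGs) within minutes. Many of these encode transcription factors (Fos, Egr1, Npas4, Nr4a1), which in turn act on effector genes such as Bdnf. A list of 25 IEG transcription factors had 6 members with a positive interaction and 0 with a negative one, and 15 and 0 with the replicate block. Of all 13720 genes that averaged 1 CPM or more, 0.692% and 4.24% were positive and 0.0656% and 2.66% negative in the 2 fits, the background for every list count below. The list's median change was −1.25 in WT and 0.42 in Top1 cKO, beside 0.02 and −0.01 over all genes, and 24 of the 25 interactions were above 0. Under an alternative with robust dispersion estimates, added after the data were seen, 3 of the 25 were called without the block and 9 with it.

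Because several of these genes carry a cyclic AMP response element (CRE), the site bound by CREB, the 250 bases before the start site of 6 short positive genes are shown, taken from RefSeq promoter windows on GRCm38.p6, a different build from that of the counts. Capitals mark TGACG, the core of the element, on either strand (CGTCA is its reverse complement), and where both overlap they form the palindrome TGACGTCA. The 6 were chosen for display after the matches were known.
Fos promoter, chr12:85473640-85473889, + strand: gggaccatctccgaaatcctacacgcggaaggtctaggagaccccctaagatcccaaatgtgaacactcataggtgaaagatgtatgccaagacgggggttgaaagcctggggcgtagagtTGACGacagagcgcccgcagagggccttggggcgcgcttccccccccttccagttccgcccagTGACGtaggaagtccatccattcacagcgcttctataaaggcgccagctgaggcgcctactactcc
Nr4a1 promoter, chr15:101266596-101266845, + strand: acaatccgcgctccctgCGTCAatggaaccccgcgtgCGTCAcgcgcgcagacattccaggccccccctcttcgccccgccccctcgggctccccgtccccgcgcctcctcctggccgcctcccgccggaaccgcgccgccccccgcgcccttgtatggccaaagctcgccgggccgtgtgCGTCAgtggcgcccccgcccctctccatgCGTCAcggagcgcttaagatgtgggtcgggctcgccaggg
Npas4 promoter, chr19:4989972-4990221, - strand: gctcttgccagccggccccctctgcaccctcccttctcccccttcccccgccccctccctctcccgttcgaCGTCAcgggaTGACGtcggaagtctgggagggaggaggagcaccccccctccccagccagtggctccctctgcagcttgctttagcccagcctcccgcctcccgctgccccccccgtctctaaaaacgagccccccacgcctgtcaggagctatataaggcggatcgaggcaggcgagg
Scg2 promoter, chr1:79440027-79440276, - strand: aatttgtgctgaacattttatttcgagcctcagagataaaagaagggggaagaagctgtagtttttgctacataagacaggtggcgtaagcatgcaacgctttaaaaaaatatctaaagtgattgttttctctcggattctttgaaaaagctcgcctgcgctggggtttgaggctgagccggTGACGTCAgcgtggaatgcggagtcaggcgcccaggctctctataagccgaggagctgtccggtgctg
Pcsk1 promoter, chr13:75089607-75089856, + strand: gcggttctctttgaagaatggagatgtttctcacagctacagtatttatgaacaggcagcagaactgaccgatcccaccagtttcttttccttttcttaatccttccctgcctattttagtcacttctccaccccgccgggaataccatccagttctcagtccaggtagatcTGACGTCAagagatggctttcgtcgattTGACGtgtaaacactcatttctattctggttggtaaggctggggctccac
Dusp1 promoter, chr17:26508473-26508722, - strand: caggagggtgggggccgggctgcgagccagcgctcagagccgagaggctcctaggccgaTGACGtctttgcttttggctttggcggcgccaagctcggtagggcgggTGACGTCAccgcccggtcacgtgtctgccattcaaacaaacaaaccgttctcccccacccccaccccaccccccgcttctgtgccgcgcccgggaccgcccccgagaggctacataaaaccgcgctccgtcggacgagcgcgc

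The full palindrome stood in the windows of Scg2, Pcsk1 and Dusp1, where it began 68, 78 and 143 bases before the start site. Nr4a1 had 4 copies of CGTCA, and Fos had 2 of TGACG, 129 and 66 bases before the start site. Of the 21 short positive genes with a promoter in the table, 14 (66.7%) held TGACG or CGTCA, and 4 (19%) held TGACGTCA (Cds1 beside the 3 above). The shares were 31.3% and 3.23% over all expressed genes of 100 kb or less, and 17.8% and 1.55% over all 32851 promoter windows of the same length. Of the 54 long positive genes with a promoter, 9 (16.7%) held TGACG or CGTCA and 1 (1.85%), Clstn2, held TGACGTCA. A TATAA on the gene's strand was found in 6 of the 21 short genes and in 2 of the 54 long ones, against 9.63% of expressed genes of 100 kb or less and 16% of all windows. No share over expressed genes above 100 kb is given for any of these motifs, so the long genes have no background of like length. The CArG box, the site bound by SRF, was in 0 of the 21 short genes and 0 of the 54 long ones, against 1.2% of expressed genes of 100 kb or less, and in 2 of the 20 IEG factor genes with a promoter, which says only that these letters are not in the other windows. These matches are descriptions of sequence, and no binding was measured.

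Fos (chr12:86814840-86818223 on mm9, 3.38 kb), the partner of Jun in the AP-1 factor, had 92.7, 111 and 35.7 CPM in WT-Veh, 13.4, 12 and 7.28 in WT-Topot, then 75.9, 86.6 and 32.1 in Top1 cKO-Veh and 86.0, 53.1 and 64.7 in Top1 cKO-Topot. All 3 WT-Topot libraries lay below all the others, while the vehicle and topotecan libraries of Top1 cKO overlapped. Its log2 change was −2.86 ± 0.39 (SE) in WT and 0.05 ± 0.34 in Top1 cKO, an interaction of 2.91 ± 0.52 (FDR 0.00588).

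Npas4 (chr19:4984355-4989971), an IEG factor induced by calcium entry in neurons, had 23.7, 67.9 and 29.4 CPM in WT-Veh and 2.68, 1.14 and 6.85 in WT-Topot. In Top1 cKO it had 12.9, 32.1 and 16.0 CPM with vehicle and 37.0, 21.3 and 31.9 with topotecan. The drug-treated WT libraries were again the lowest of the 12, and the interaction was 4.11 ± 0.67 (FDR 0.00292). Nr4a1 (chr15:101097277-101105223), an orphan nuclear receptor, fell from 108, 108 and 54.1 CPM in WT-Veh to 8.04, 5.15 and 13.7 in WT-Topot. In Top1 cKO it had 69.6, 107 and 61.1 CPM with vehicle and 172, 103 and 140.3 with topotecan, and its interaction was 4.17 ± 0.45 (FDR 9.83e-05). The change in Top1 cKO did not pass the test with the block either (0.78 ± 0.19, FDR 0.0134).

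A further 3 IEG factors were called: Egr4 with an interaction of 2.58 ± 0.32 (FDR 0.000321), Nr4a2 with 2.30 ± 0.42 (FDR 0.00634) and Egr1 with 2.16 ± 0.39 (FDR 0.00634). Egr4, a zinc finger factor, had 10.3 to 18.4 CPM in WT-Topot against 48.6 to 58.7 in WT-Veh, and 80.7 to 116 in Top1 cKO-Topot against 50.6 to 63.7 in Top1 cKO-Veh. Its groups did not overlap in either genotype, in opposite directions, and the Top1 cKO change was not called (0.63 ± 0.16, FDR 0.0183 with the block).

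The activity-induced effectors, 27 genes that act outside the nucleus, had 6 members with a positive interaction (22.2%, against 0.692% of expressed genes). With the replicate block 9 members were positive (33.3%, against 4.24%), and 0 were negative in either fit. Their median change was −1.17 in WT and 0.09 in Top1 cKO, and all 27 interactions were above 0. With robust dispersion estimates 3 were called without the block and 3 with it. Ptgs2 (chr1:151947254-151955140), which encodes the inducible cyclooxygenase, led all genes: it had 18.1, 34.2 and 8.64 CPM in WT-Veh, 1.68, 0.859 and 2.14 in WT-Topot, then 26.6, 15.8 and 10.02 in Top1 cKO-Veh and 47.8, 19.9 and 26.7 in Top1 cKO-Topot. Its interaction was 4.58 ± 0.70 (FDR 0.00175), and the 3 WT-Topot values rest on 3 to 5 counts each.

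Bdnf (chr2:109514857-109567204), the neurotrophin that acts on TrkB, fell from 195, 453 and 199 CPM in WT-Veh to 31.2, 30.6 and 18.8 in WT-Topot. Its Top1 cKO levels were 158, 145 and 79.2 CPM with vehicle and 180.0, 129 and 177 with topotecan, so these groups overlapped. The interaction was 3.72 ± 0.43 (FDR 0.000133). Nptx2, a secreted pentraxin that clusters AMPA receptors, had 65.0, 362 and 130.2 CPM in WT-Veh, 28.1, 14.0 and 37.3 in WT-Topot, then 164, 150.0 and 193 in Top1 cKO-Veh and 290.4, 129 and 319 in Top1 cKO-Topot. Its interaction was 3.37 ± 0.63 (FDR 0.00786).

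WT-Veh replicate 2 stood above the other WT-Veh libraries for several of these genes, Bdnf, Nptx2, Npas4 and Scg2 among them. Without that library the interaction of Nptx2 was 2.43 (FDR 0.0142), that of Fos 2.60 (FDR 0.0135) and that of Egr1 1.72 (FDR 0.0134), so these calls were lost. Other libraries mattered too. Without Top1 cKO-Topot replicate 1 the FDR was 0.0153 for Nptx2, 0.0143 for Fos and 0.0163 for Egr1. For Pcsk1 and Dusp4 it was then 0.0125 and 0.022. Leaving out WT-Veh replicate 2 also ended the calls of 3 further activity-linked genes, Pcsk1 (1.66, FDR 0.0186), Adcyap1 (1.71, FDR 0.0159) and Dusp4 (1.82, FDR 0.022). Bdnf (3.19, FDR 6.29e-05), Nr4a1 (4.02, FDR 6.29e-05), Npas4 (3.50, FDR 0.0063), Ptgs2 (4.01, FDR 0.00376), Vgf (2.31, FDR 0.000471) and Scg2 (2.02, FDR 0.00155) were called without it. With robust dispersion estimates the FDR was 0.0286 for Npas4, 0.21 for Nptx2, 0.0619 for Fos, 0.044 for Egr1, 0.0224 for Vgf and 0.0779 for Scg2, and it stayed under 0.01 for Nr4a1 (0.00122), Ptgs2 (0.00966), Bdnf (0.00616) and Egr4 (0.000421). With these estimates and the block together it was 0.0122 for Nr4a1 and 0.0145 for Bdnf. With a filter on low counts, which kept 11 of the 27 short positive genes among its calls, the FDR was 0.0118 for Npas4, 0.0161 for Fos, 0.0183 for Egr1, 0.0141 for Nr4a2, 0.0279 for Nptx2 and 0.0123 for Scg2, and it stayed under 0.01 for Ptgs2, Bdnf, Nr4a1, Egr4 and Vgf. Of these 5, limma-voom did not call Ptgs2 (FDR 0.0359) and Vgf (FDR 0.0198). Nr4a2 was called in 6 of the 12 fits without a single library.

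Neuropeptides and granins, the cargo and matrix of dense-core vesicles, had 4 positive members of 25 and 5 with the block (16% and 20%, against 0.692% and 4.24% of expressed genes). With robust dispersion estimates 1 and 2 were positive. The list's median change was −1.40 in WT and −0.09 in Top1 cKO. Its members Vgf, Scg2 and Pcsk1 are also counted among the effectors. Vgf, a nerve growth factor-inducible precursor of secreted peptides, had 798 to 2137 CPM in WT-Veh, 136 to 201 in WT-Topot, 595 to 1137 in Top1 cKO-Veh and 739 to 953 in Top1 cKO-Topot, an interaction of 2.83 ± 0.39 (FDR 0.0008). Scg2, the granin secretogranin II, had an interaction of 2.65 ± 0.42 (FDR 0.00235), and Pcsk1, the convertase that cleaves prohormones, of 1.85 ± 0.34 (FDR 0.00647, and 0.0142 with the filter). The PACAP gene Adcyap1 had 2.04 ± 0.37 (FDR 0.00634, 0.0113 with robust dispersion estimates and 0.0154 with the filter).

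A list of ERK feedback genes holds inhibitors of the ERK kinase cascade that the cascade itself induces. Of its 12 members, 2 had a positive interaction and 8 did with the block (16.7% and 66.7%, against 0.692% and 4.24% of expressed genes). With robust dispersion estimates 1 and 4 did. The list's median change was −0.98 in WT and 0.32 in Top1 cKO. Dusp1, a phosphatase of MAP kinases, had 31.1 to 53.5 CPM in WT-Veh, 11.4 to 12.4 in WT-Topot, 23.0 to 27.5 in Top1 cKO-Veh and 28.6 to 46.8 in Top1 cKO-Topot. Its interaction was 2.44 ± 0.36 (FDR 0.00121), and the Top1 cKO groups did not overlap, although the change was not called (0.67 ± 0.21, FDR 0.086 with the block). Dusp4 had an interaction of 2.19 ± 0.41 (FDR 0.00786), a call lost with robust dispersion estimates (FDR 0.0244) and with a filter on low counts (FDR 0.02). Dusp6 (1.59 ± 0.34, FDR 0.0184) and Spry2 (1.40 ± 0.31, FDR 0.0252) were called with the block, at FDRs of 5.43e-06 and 1.27e-05.

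**Figure D2:**
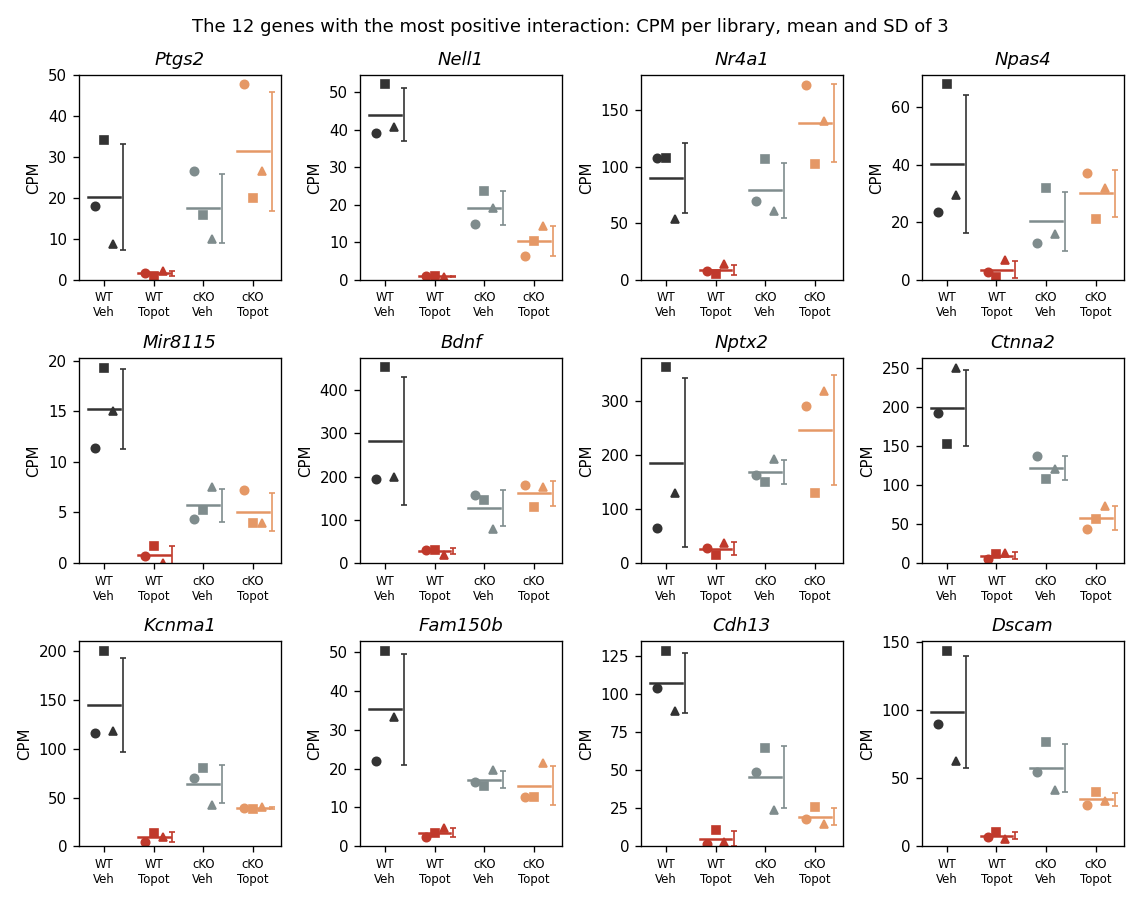
CPM in each of the 12 libraries for the 12 genes with the most positive interaction. Circles, squares and triangles are replicate numbers 1, 2 and 3, the horizontal bar is the group mean and the error bar its SD over 3 libraries. In every panel the WT-Topot libraries lie below all 3 WT-Veh libraries, as in Bdnf, with 18.8 to 31.2 CPM against 195 to 453.

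A second short group was formed by targets of ATF4, the factor of the integrated stress response that turns on amino acid transport, amino acid synthesis and tRNA charging. Of 37 list members, 3 had a positive interaction and 16 did with the block (8.11% and 43.2%, against 0.692% and 4.24% of expressed genes). All 37 interactions were above 0. The median change was −1.09 in WT and −0.02 in Top1 cKO. The vehicle cultures differed too: Top1 cKO-Veh minus WT-Veh had a median of −1.19 over this list, −1.11 over the metabotropic glutamate receptors and −0.27 over the IEG transcription factors. Over the positive genes it was −0.59 for the long class, with 67 of 67 below 0, and −0.35 for the short class, with 23 of 27 below 0. That difference shares the WT-Veh libraries with the interaction, so the levels themselves are given.

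Atf4 (chr15:80085614-80087970) had 451, 511 and 577 CPM in WT-Veh, 153, 189 and 146 in WT-Topot, then 273, 241 and 305 in Top1 cKO-Veh and 358, 255 and 363 in Top1 cKO-Topot. The Top1 cKO-Veh libraries lay between the WT groups without overlap, and the Top1 cKO-Topot libraries were not lower. Its interaction was 1.91 ± 0.25 (FDR 0.000407). Chac1, an enzyme that degrades glutathione, had 59.1, 61.8 and 65.1 CPM in WT-Veh, 7.37, 17.5 and 12.4 in WT-Topot, then 9.78, 9.16 and 13 in Top1 cKO-Veh and 13.1, 7.31 and 16.6 in Top1 cKO-Topot. Its WT-Topot libraries overlapped both Top1 cKO groups, and the interaction of 2.52 ± 0.45 (FDR 0.00589) came with a log2 difference of −2.56 ± 0.31 between Top1 cKO-Veh and WT-Veh (FDR 0.000295).

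Slc38a2, the amino acid transporter SNAT2, had 189.9, 135 and 189 CPM in WT-Veh, 107, 73.6 and 97.2 in WT-Topot, then 82.5, 50.2 and 73.2 in Top1 cKO-Veh and 165, 93.0 and 126 in Top1 cKO-Topot. Topotecan moved the groups apart in opposite directions, without overlap in either genotype. The interaction was 1.80 ± 0.33 (FDR 0.00634), and with the block both the fall in WT (−0.89, FDR 3.46e-07) and the rise in Top1 cKO (0.90, FDR 4.94e-06) were called. Slc7a1 (1.58 ± 0.18), Cars (1.71 ± 0.30) and Shmt2 (1.65 ± 0.32), a cationic amino acid transporter, the cysteinyl-tRNA synthetase and the mitochondrial serine hydroxymethyltransferase, were called with the block and not without it, at FDRs of 1.54e-08, 5.3e-05 and 0.000337. Shmt2 had 7.52 to 10.9 CPM in Top1 cKO-Veh, below the 16.3 to 21.5 of WT-Topot. Endoplasmic reticulum chaperones, induced by other arms of the stress response, had 0 of 20 members called and 2 with the block, both positive. Their median interaction was −0.14, with 0.04, 0.07 and −0.31 within replicate numbers 1, 2 and 3 on log2(CPM + 1).

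The interaction rose with the genomic span of the gene. Its median was −0.10 for 3401 genes of up to 10 kb, 0.14 from 100 to 200 kb, 0.49 from 200 to 400 kb, 1.04 from 400 to 800 kb and 1.42 for the 71 genes over 800 kb. With the block, 1.65% of the shortest class and 47.9% of the longest had a positive interaction, and 2.88% and 0% a negative one. The median for 2017 genes over 100 kb minus that for 11315 shorter genes was 0.40, and it was 0.45, 0.35 and 0.40 within replicate numbers 1, 2 and 3 (SD 0.05, n = 3). The same subtraction of median levels, as log2(CPM + 1), gave −0.15 to 0.21 in the 3 WT-Topot libraries and 0.32 to 0.86 in the other 9, so WT-Topot did not overlap the rest.

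Long genes that fell in WT mostly had a change below 0 in Top1 cKO too. Over the 380 genes above 100 kb that fell in WT, the change in Top1 cKO was at the median 22.6% of the same gene's change in WT. Of their Top1 cKO values, 86.6% were below 0. Over the 183 genes above 400 kb these values were 30.5% and 95.1%. Over the 106 genes of 100 kb or less that fell in WT, they were 2.79% and 52.8%. With the block, 99 of the 380, 74 of the 183 and 3 of the 106 were called lower in Top1 cKO, against 1.63% of expressed genes. In a bulk culture, fewer cells of a type and less RNA per cell cannot be told apart, and the untransduced cells of the Top1 cKO cultures are part of every level.

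**Figure D3:**
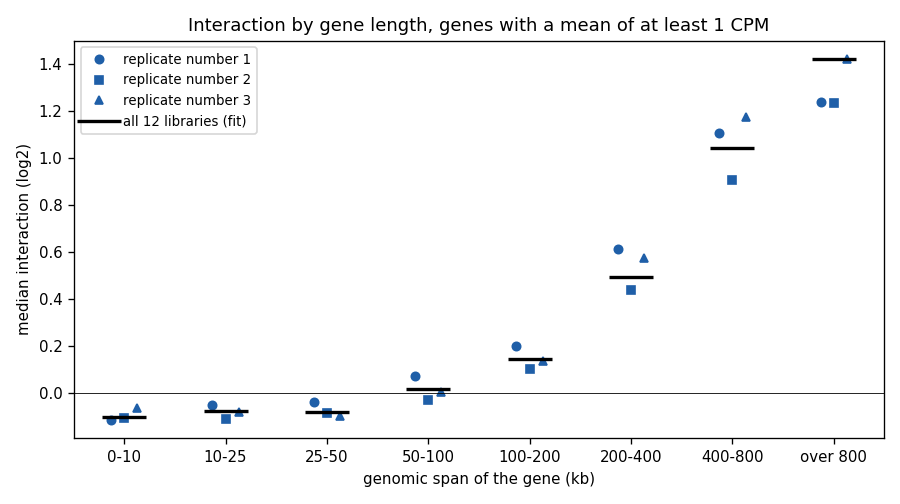
Median interaction (log2) by genomic span for genes that averaged 1 CPM or more, from the fit over all 12 libraries (bars) and within each replicate number (circles, squares and triangles). The medians lie near 0 up to 100 kb and reach 1.42 over 800 kb, and the 3 replicate numbers follow the same course.

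Synaptic adhesion genes link neurons across the synaptic cleft. Of the 65 members, 10 had a positive interaction and 0 a negative one, and with the block 26 and 5 (23 and 3 with robust dispersion estimates too), against 4.24% and 2.66% of expressed genes. The list's median change was −0.92 in WT and −0.30 in Top1 cKO, and with the block 37 members fell in WT (8.73% of expressed genes did) and 18 in Top1 cKO (1.63%). Ctnna2 (chr6:76831631-77929693, 1098 kb), the neuronal alpha-catenin that ties cadherins to actin, had 193, 153 and 251 CPM in WT-Veh, 4.69, 11.4 and 12.4 in WT-Topot, then 138, 107 and 121 in Top1 cKO-Veh and 43.8, 56.1 and 73.4 in Top1 cKO-Topot. Both genotypes separated without overlap, with changes of −4.39 ± 0.30 in WT and −1.08 ± 0.25 in Top1 cKO (FDR 0.13, and 7.7e-06 with the block). The interaction was 3.31 ± 0.38 (FDR 0.000133).

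Dscam (chr16:96813686-97392359), an immunoglobulin-type receptor of axon and dendrite self-avoidance, had 90.1, 144 and 62.8 CPM in WT-Veh, 6.70, 10.6 and 5.57 in WT-Topot, then 54.4, 76.3 and 41.6 in Top1 cKO-Veh and 30.3, 39.5 and 33.2 in Top1 cKO-Topot. Its interaction was 2.91 ± 0.43 (FDR 0.00121). Cdh13 (chr8:120807633-121848821), a cadherin anchored by a lipid tail, had 104, 128 and 88.7 CPM in WT-Veh, 1.68, 10.6 and 2.57 in WT-Topot, then 48.5, 64.1 and 24.0 in Top1 cKO-Veh and 17.5, 25.6 and 14.9 in Top1 cKO-Topot. For both genes the WT groups were far apart, and the Top1 cKO groups overlapped for Cdh13 but not for Dscam. The interaction of Cdh13 was 3.09 ± 0.58 (FDR 0.00831) and was lost with robust dispersion estimates (FDR 0.0799, and 3.29e-05 with the block too).

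Other adhesion members had the changes given here, and the differences between members were not tested. Without the block, the changes of Clstn2, Nrxn3 and Negr1 in Top1 cKO were not called. Over the whole list, 2 members fell in Top1 cKO without the block and 18 with it. Clstn2, a calsyntenin, had an interaction of 2.51 ± 0.31 (FDR 0.000257) and changed by −2.77 in WT against −0.26 in Top1 cKO. Nrxn3, a presynaptic neurexin, had 2.34 ± 0.31 (FDR 0.000552), with −3.55 in WT and −1.22 in Top1 cKO. Negr1, of the IgLON family, had 1.72 ± 0.28 (FDR 0.00294), with −2.91 and −1.19. Nlgn1, a neuroligin of the postsynaptic membrane, chosen after its values were seen, had an interaction of 1.72 ± 0.26 with the block, called there (FDR 5.84e-06) but not without it.

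Without the block 3 genes fell in both genotypes and had a positive interaction, against 66 of the 583 with it. Cadm2 (965 kb), a nectin-like adhesion molecule, had 681, 756 and 714 CPM in WT-Veh, 21.8, 53.8 and 36.8 in WT-Topot, then 404, 352 and 256 in Top1 cKO-Veh and 55.8, 87.7 and 76.5 in Top1 cKO-Topot. Nrg3 (1104 kb), a neuregulin ligand of ErbB4, had 108 to 113 CPM in WT-Veh, 2.01 to 7.73 in WT-Topot, 39.1 to 52.4 in Top1 cKO-Veh and 11.6 to 15.7 in Top1 cKO-Topot. Opcml (1135 kb), an IgLON protein, changed by −3.21 ± 0.21 in WT and −1.33 ± 0.20 in Top1 cKO. Their interactions were 2.05 ± 0.34, 2.69 ± 0.41 and 1.88 ± 0.28 (FDRs 0.00369, 0.00152 and 0.00121), that of Cadm2 reaching an FDR of 0.011 with robust dispersion estimates.

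Nell1 (chr7:57230234-58120625, 890.4 kb), a secreted glycoprotein with EGF-like repeats that stood in no list, had the largest interaction of the long genes. It had 39.2, 52.2 and 40.9 CPM in WT-Veh, 1.01, 1.14 and 0.856 in WT-Topot, then 14.9, 23.8 and 19.0 in Top1 cKO-Veh and 6.37, 10.3 and 14.4 in Top1 cKO-Topot, and the WT-Topot values rest on 2 to 4 counts. The interaction was 4.46 ± 0.51 (FDR 0.000133). Fat3, a giant cadherin (468 kb), had 29.2 to 40.6 CPM in WT-Topot against 234 to 354 in WT-Veh, and 133 to 136 in Top1 cKO-Topot against 143 to 184 in Top1 cKO-Veh, an interaction of 2.64 ± 0.27 (FDR 7e-05). Of 32 cadherins and protocadherins, 3 were positive and 0 negative, and with the block 7 and 1.

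Receptor tyrosine phosphatases, transmembrane enzymes of axon growth and synapse assembly, had 2 positive members of 16. With the block 6 were positive and 1 negative, against 4.24% and 2.66% of expressed genes. Ptprn2, a dense-core vesicle protein of this family, had an interaction of 2.60 ± 0.30 (FDR 0.000133) and Ptprg one of 1.95 ± 0.31 (FDR 0.0024). Axon guidance genes had 1 positive member of 51 and, with the block, 14 positive (27.5%, against 4.24% of expressed genes) and 1 negative. Ephb1, an ephrin receptor, had 6.30 to 8.56 CPM in WT-Topot against 21.5 to 35.1 in WT-Veh, and 26.9 to 31.9 in Top1 cKO-Topot against 28.6 to 30.1 in Top1 cKO-Veh. The drug response of Ephb1 was thus near 0 in Top1 cKO (0.02 ± 0.24), for a gene of 433 kb, and its interaction was 2.0 ± 0.36 (FDR 0.00588).

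Among glutamate receptors, Grid1, the delta-type subunit that binds cerebellin, had an interaction of 2.64 ± 0.40 (FDR 0.00121), with −3.00 in WT and −0.35 in Top1 cKO. It was the only positive member of 18 ionotropic subunits without the block, and with it there were 6, among them the NMDA subunit Grin2a (2.51 ± 0.46, FDR 0.000108) and the AMPA subunit Gria1 (0.90 ± 0.16, FDR 5.84e-05). Metabotropic receptors had 0 of 7 members called and 3 with the block (2 with robust dispersion estimates too), and their median change was −1.35 in WT and −1.06 in Top1 cKO. Of these, Grm8 changed by −3.34 in WT and −0.13 in Top1 cKO, while Grm5 changed by −2.29 and −1.35. The difference between these members was not tested. GABA receptor genes had 0 of 16 called and 2 with the block (1 with robust dispersion estimates too).

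Kcnma1 (chr14:24117983-24622526, 505 kb), the calcium-activated BK potassium channel, had 116, 201 and 118 CPM in WT-Veh, 4.02, 14.0 and 9.42 in WT-Topot, then 70.0, 79.9 and 42.1 in Top1 cKO-Veh and 39.0, 37.9 and 40.7 in Top1 cKO-Topot. Its interaction was 3.24 ± 0.44 (FDR 0.000772). Of 75 potassium channel genes 3 were positive and 0 negative, and with the block 16 and 4 (14 and 2 with robust dispersion estimates too), against 4.24% and 2.66% of expressed genes. Kcnq5, a subunit of the M current, had 2.11 ± 0.29 (FDR 0.000802) and Dpp6, an auxiliary subunit of Kv4 channels, 1.69 ± 0.27 (FDR 0.00235). Kcnip2, another Kv4 auxiliary subunit but a gene of 24.2 kb, went the other way with the block, at −1.81 ± 0.25 (FDR 9.64e-07).

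Of 25 voltage-gated sodium and calcium channel genes, 1 was positive without the block, and with it 10 were positive and 5 negative (9 and 2 with robust dispersion estimates too), against 4.24% and 2.66% of expressed genes. The called member was Cacnb4, an auxiliary calcium channel subunit, with 1.49 ± 0.24 (FDR 0.00239). Scn1a, the sodium channel Nav1.1, had 129.9, 164 and 249 CPM in WT-Veh, 86.1, 77.0 and 147 in WT-Topot, then 143, 129 and 207 in Top1 cKO-Veh and 239, 224 and 345 in Top1 cKO-Topot. Within each replicate number it was lower with topotecan in WT and higher in Top1 cKO, and with the block both changes were called (−0.82, FDR 9.19e-07, and 0.76, FDR 1.63e-05). The interaction of 1.57 ± 0.37 had an FDR of 0.0391 without the block and 1.74e-09 with it.

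At the synapse's inner faces, postsynaptic scaffolds had 1 positive member of 27 and 14 positive and 1 negative with the block, and presynaptic release genes had 2 positive and 1 negative of 53, and 12 and 4 with the block, while robust dispersion estimates without the block left 1 positive. With the block 51.9% and 22.6% of these 2 lists were positive, against 4.24% of expressed genes. Kalrn, a guanine nucleotide exchange factor of dendritic spines, had 1.52 ± 0.23 (FDR 0.00121). Rims1, an active zone scaffold, had 1.96 ± 0.34 (FDR 0.00447) and Cadps, a priming factor of dense-core vesicles, 1.75 ± 0.32 (FDR 0.00653, and 0.0124 with robust dispersion estimates). Erc2, another active zone protein, had 1.42 ± 0.28 (FDR 0.0118, and 1.05e-06 with the block). Each of these 4 had a change below 0 in both genotypes, larger in WT.

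A pair of leading positive genes belonged to none of these families. Fam150b, a secreted ligand of the ALK receptor and a gene of only 9.53 kb, had 21.9, 50.4 and 33.4 CPM in WT-Veh, 2.35, 3.43 and 4.71 in WT-Topot, then 16.4, 15.6 and 19.5 in Top1 cKO-Veh and 12.7, 12.6 and 21.4 in Top1 cKO-Topot. Its interaction was 3.19 ± 0.50 (FDR 0.00196). The symbol Mir8115 had 11.4 to 19.3 CPM in WT-Veh, 0 to 1.72 in WT-Topot (0 to 6 counts), 4.30 to 7.52 in Top1 cKO-Veh and 3.93 to 7.17 in Top1 cKO-Topot, an interaction of 3.87 ± 0.74 (FDR 0.00978). The libraries were made from polyadenylated RNA, so this value does not measure a mature microRNA.

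Most expressed genes are short: 11315 spanned 100 kb or less and 2017 over 100 kb. All 9 genes with a negative interaction also spanned 100 kb or less. They rose in WT, while their change in Top1 cKO was below 0 in 9 of 9 and called in none. Their median change was 1.54 in WT and −0.36 in Top1 cKO. In vehicle, all 9 had a higher level in Top1 cKO than in WT by the fit, with a median difference of 0.60. Because WT-Veh enters both, the levels are given gene by gene.

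Wdr6, a WD-repeat protein of tRNA methylation, was the most abundant of the 9. It had 349.6, 332 and 304 CPM in WT-Veh, 1028, 1099 and 739 in WT-Topot, then 507, 631 and 548 in Top1 cKO-Veh and 439, 584 and 331 in Top1 cKO-Topot. The WT-Topot libraries were the highest 3 of the 12 and the Top1 cKO groups overlapped, giving an interaction of −1.86 ± 0.27 (FDR 0.00107). Kctd12 (chr14:103377437-103381745), an auxiliary subunit of the GABA-B receptor, had 127, 107 and 179 CPM in WT-Veh, 323, 389.8 and 366 in WT-Topot, then 248, 314 and 306 in Top1 cKO-Veh and 223, 339 and 254 in Top1 cKO-Topot. Its Top1 cKO libraries all lay above WT-Veh and its interaction was −1.48 ± 0.28 (FDR 0.00786).

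Syt17, a synaptotagmin-like protein, had 8.19, 11.4 and 13.2 CPM in WT-Veh, 42.2, 48.9 and 56.5 in WT-Topot, then 32.8, 25.6 and 23.0 in Top1 cKO-Veh and 24.3, 23.9 and 15.3 in Top1 cKO-Topot. The 4 groups of Syt17 were ordered WT-Veh, Top1 cKO, WT-Topot, and the Top1 cKO groups overlapped each other but neither WT group. Its interaction was −2.55 ± 0.37 (FDR 0.00107), the only call of the 9 that limma-voom also made. Sec14l3, a lipid transfer protein, had the largest negative value, −3.75 ± 0.71 (FDR 0.00811), at 2.05 to 4.61 CPM in WT-Veh, 15.4 to 19.7 in WT-Topot, 1.96 to 5.95 in Top1 cKO-Veh and 0.797 to 2.32 in Top1 cKO-Topot, the last on 2 to 7 counts. Ccdc74a had 25.8 to 28.5 CPM in WT-Topot and 3.93 to 11.0 in the other 9 libraries, an interaction of −2.83 ± 0.49 (FDR 0.00524).

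The remaining 4 were more moderate. The photoreceptor-type cadherin Cdhr1 had −2.01 ± 0.36 (FDR 0.00634), cysteine dioxygenase (Cdo1) −1.90 ± 0.33 (FDR 0.00462), the carbonic anhydrase-related Car11 −1.77 ± 0.33 (FDR 0.00786) and the kelch protein Klhl5 −1.49 ± 0.28 (FDR 0.00789). For Cdhr1, Cdo1 and Klhl5 the WT-Topot libraries lay above the other 9. For Car11 they had 61.0 to 70.2 CPM and overlapped Top1 cKO-Veh at 51.6 to 66.6. Leaving out single libraries changed the 9 calls more than the 95: 2 genes had a negative interaction without WT-Topot replicate 3 and 2 without Top1 cKO-Veh replicate 2, against 24 without Top1 cKO-Topot replicate 2. With the block all 9 were called whichever library was left out.

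**Figure D4:**
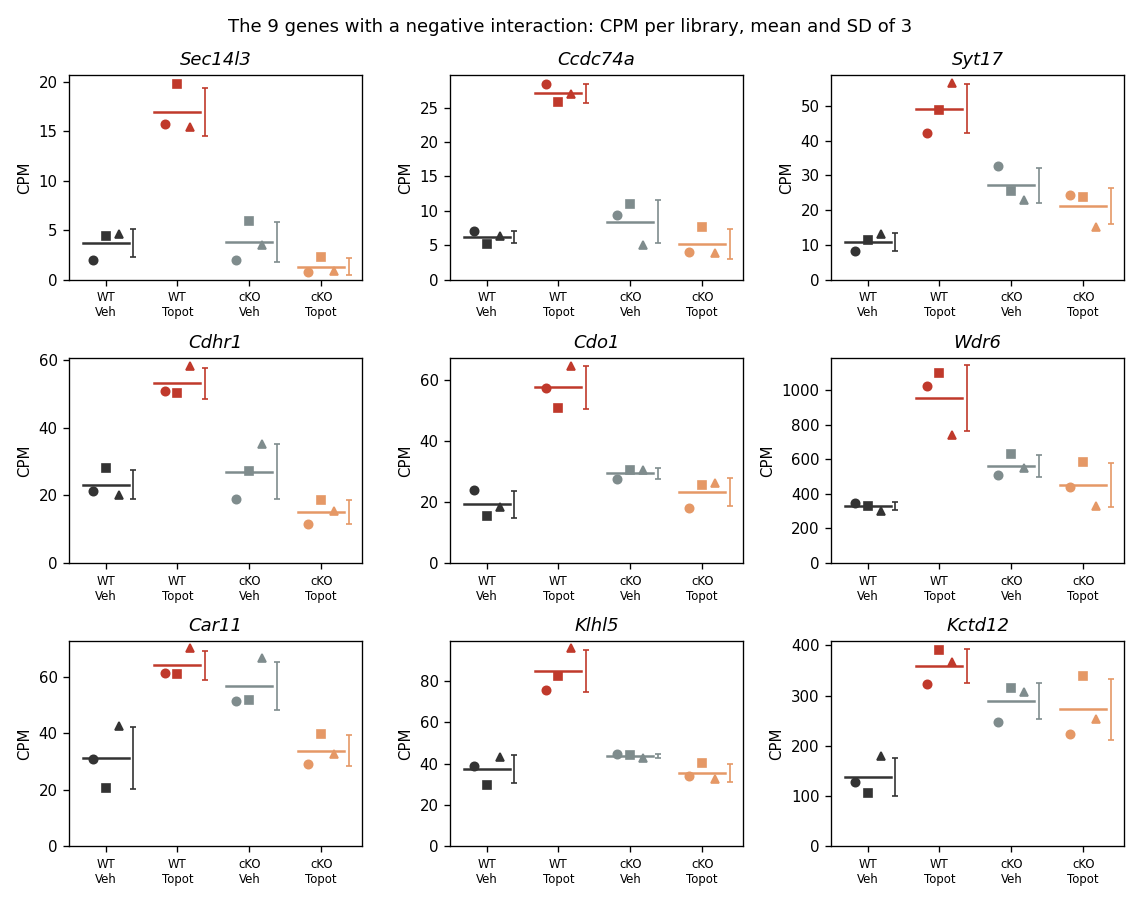
CPM in each of the 12 libraries for the 9 genes with a negative interaction, with group means and SD over 3 libraries. Circles, squares and triangles are replicate numbers 1, 2 and 3. WT-Topot has the highest group mean in every panel, for example 739 to 1099 CPM of Wdr6 against 304 to 631 in the other groups.

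Of the 365 negative genes with the block, 317 spanned 100 kb or less and 23 over 100 kb, against 11315 and 2017 of expressed genes. Of the 365, 289 rose in WT only. Several named after their values were seen show the pattern. Hap1, a binding partner of huntingtin, changed by 1.85 in WT and −0.03 in Top1 cKO (FDR of the interaction 7.6e-12), and Neurod1, a neurogenic transcription factor, by 1.67 and −0.17 (FDR 5.93e-06). The arrestin-domain genes Txnip, Arrdc4 and Arrdc3, the first of which restrains glucose uptake, changed by 1.66, 1.10 and 1.30 in WT and by −0.65, −0.68 and −0.21 in Top1 cKO (FDRs 5.85e-09, 4.8e-06 and 1e-05). None of these 5 was called without the block.

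The block also separated genes that moved in opposite directions in the 2 genotypes. Of the 583 positive genes, 7 fell in WT and rose in Top1 cKO (Cds1, Efr3a, Git1, Peg10, Scn1a, Slc38a2 and Znrf1). Efr3a, which anchors a lipid kinase at the plasma membrane, had 109 to 116 CPM in WT-Topot, 163 to 188 in WT-Veh, 197 to 213 in Top1 cKO-Veh and 243 to 309 in Top1 cKO-Topot, with no overlap among the 4 groups. Of the 365 negative genes, 5 rose in WT and fell in Top1 cKO (Chrna4, Efnb3, Mug1, Nnat and Plxnc1). Nnat, an imprinted proteolipid, had 232 to 340.1 CPM in WT-Veh, 423 to 624 in WT-Topot, 393 to 635 in Top1 cKO-Veh and 331 to 461 in Top1 cKO-Topot.

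A further 9 positive genes rose in Top1 cKO and were not called in WT, again with the block. They include Cdkn1a, the p53-driven cell cycle inhibitor p21, with 131 to 301 CPM in WT-Veh, 179 to 305 in WT-Topot, 151 to 272 in Top1 cKO-Veh and 346 to 659 in Top1 cKO-Topot. With the block its change was 0.04 ± 0.15 in WT and 1.21 ± 0.15 in Top1 cKO (FDR 3.46e-07), and its interaction of 1.16 ± 0.21 was called (FDR 0.000115), but not without the block (1.14 ± 0.39, FDR 0.26) or with the block and robust dispersion estimates (0.277). Of 31 p53 targets, 0 had an interaction without the block and 4 with it. With the block 6 rose and 3 fell in WT, where 5.44% and 8.73% of expressed genes did. In Top1 cKO 9 rose and 0 fell (0.394% and 1.63%). The list's median changes were 0.31 in WT and 0.42 in Top1 cKO. Nfat5 and Slc5a3, also chosen after their values were seen, a factor of the response to hypertonicity and the inositol transporter it controls, changed by −0.32 and 0.28 in WT and by 0.68 and 1.00 in Top1 cKO (interaction FDRs 5.12e-05 and 0.00773 with the block). Conversely, Top2b, the neuronal type II topoisomerase, was among 15 negative genes that fell in Top1 cKO only, at −0.55 ± 0.13 on the log2 scale (FDR 0.00963), with an interaction of −0.84 ± 0.18 (FDR 0.00156), against −0.86 ± 0.32 without the block (FDR 0.342).

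Of the 7 genes that fell in Top1 cKO without the block (Cadm2, Nbea, Nkain2, Nrg3, Opcml, Syt1 and Vps13b), Vps13b alone had an interaction p above 0.05. It had 53.5, 50.4 and 43.2 CPM in WT-Veh, 13.1, 18 and 15.8 in WT-Topot, then 43.0, 49.2 and 33.6 in Top1 cKO-Veh and 11.6, 17.9 and 11.4 in Top1 cKO-Topot. Its changes were −1.65 ± 0.25 and −1.62 ± 0.25, and the interaction was 0.03 ± 0.35, for a gene of 559.7 kb that encodes a lipid transport protein of the Golgi. Nbea and Syt1, a vesicle traffic protein and the calcium sensor of release, had interactions of 1.06 ± 0.17 and 1.24 ± 0.15 with the block, called there (FDRs 1.7e-05 and 4.39e-08) but not without it.

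Ube3a (chr7:66484122-66562097), the imprinted ubiquitin ligase gene whose paternal copy neurons silence, had 188, 211 and 182 CPM in WT-Veh, 203, 365 and 315 in WT-Topot, then 227, 314 and 226 in Top1 cKO-Veh and 206, 246 and 194 in Top1 cKO-Topot. Topotecan changed it by 0.60 ± 0.20 in WT (FDR 0.103, and 0.0003 with the block) and by −0.25 ± 0.20 in Top1 cKO (FDR 1, and 0.502 with the block). The interaction of −0.85 ± 0.28 was not called without the block (FDR 0.208) and, at −0.81 ± 0.17, was called with it (FDR 0.000594). The counts do not separate the parental alleles, and overlapping antisense transcription could be counted with the gene, since the strand setting is not given in the sources used here.

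Cytosolic ribosomal proteins had 0 of 68 members called in either fit and a median interaction of 0.00, and oxidative phosphorylation genes had 0 of 74 called and 1 negative with the block. Cholesterol synthesis genes had 0 of 21 called and 3 positive with the block (14.3%, against 4.24% of expressed genes), and 0 with robust dispersion estimates in either fit. Their median change was −1.0 in WT and −0.20 in Top1 cKO, and their median interaction 0.81 beside −0.03 over all genes, with 0.12, 0.46 and 1.19 within replicate numbers 1, 2 and 3 on log2(CPM + 1). Topoisomerases and genes that repair TOP1 adducts had 0 of 32 called, and 3 negative with the block (2 with robust dispersion estimates too), against 2.66% of expressed genes. Zinc finger genes had 0 of 333 called. With the block 3 of them were positive (0.901%, below the 4.24% of expressed genes) and 1 negative.

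Of 18 astrocyte markers, 3 fell in WT and 0 in Top1 cKO without the block, where 2.08% and 0.0293% of all genes did. Against 8.73% and 1.63% of expressed genes, 10 and 9 of the markers fell with the block. Summed they ranged from 3861 to 8883 CPM in WT-Veh, 1996 to 3507 in WT-Topot, 3675 to 9086 in Top1 cKO-Veh and 2228 to 4330 in Top1 cKO-Topot, so the WT groups did not overlap and the Top1 cKO groups did. Their median changes were −0.88 in WT and −0.94 in Top1 cKO. Their median interaction was 0.02, 0 of 18 were called without the block and 2 positive with it, Slc1a2 (0.75 ± 0.12, FDR 2.18e-05) and Gfap (1.11 ± 0.19, FDR 3.38e-05, and 0.16 with robust dispersion estimates too). Gfap, the astrocyte filament gene, had 364 to 1151 CPM in WT-Veh, 57.0 to 181 in WT-Topot, 358 to 1233 in Top1 cKO-Veh and 117 to 425 in Top1 cKO-Topot. Microglia markers summed to 26.8 to 51.5 CPM in the WT libraries and 12.5 to 29.6 in the Top1 cKO libraries, endothelial and mural markers to 49.2 to 297 over all 12, and oligodendrocyte lineage markers to 197 to 366, with 1 of 15 at 0 counts throughout. Progenitor and proliferation markers, of which 12 of 20 averaged 1 CPM or more, summed to 242 to 573 CPM in WT-Veh and 602 to 1003 in WT-Topot, and to 304 to 652 and 501 to 994 in the same Top1 cKO groups. Interneuron markers summed to 748 to 2170 CPM over the 12 libraries, with the lowest in WT-Topot. The part of these cell types in the gene results was not tested.

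**Figure D5:**
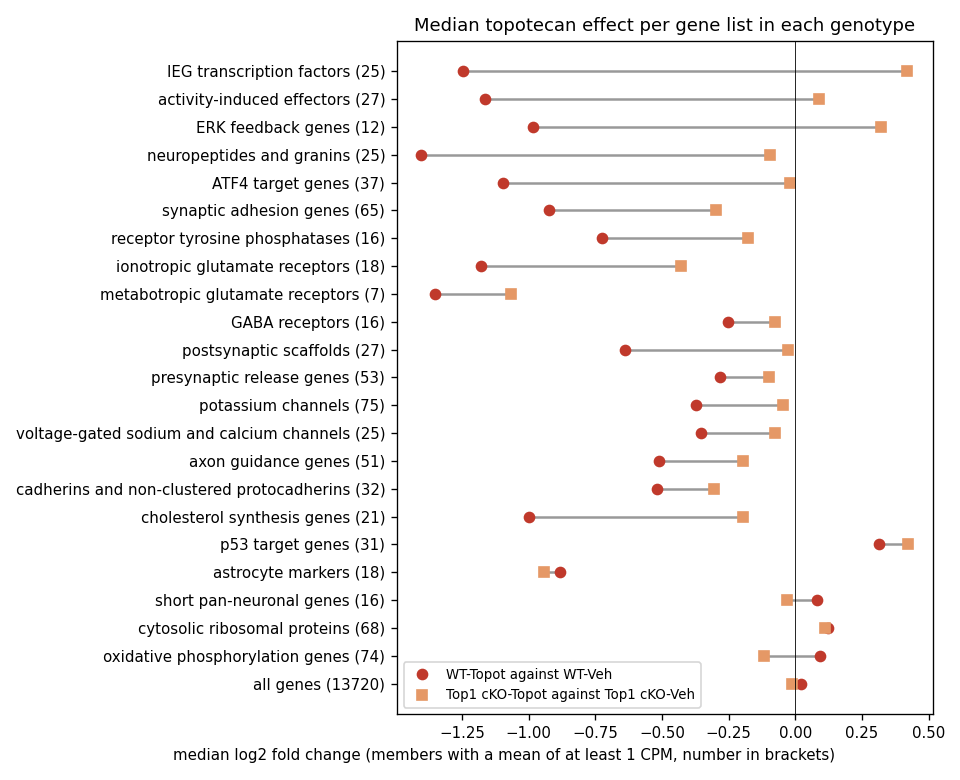
Median log2 fold change with topotecan of each gene list in WT (circles) and in Top1 cKO (squares), over members averaging 1 CPM or more (number in brackets). The longest connecting lines belong to the IEG transcription factors (−1.25 and 0.42), the neuropeptides and granins (−1.40 and −0.09) and the ERK feedback genes (−0.98 and 0.32), whereas the astrocyte markers have −0.88 and −0.94 and the medians of all genes near 0.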

How the data were processed

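RNA was sequenced from 12 libraries (polyadenylated RNA, TruSeq kit, paired-end reads). The authors cleaned the reads (TagDust), mapped them with TopHat to the mm9 genome and discarded rRNA reads. They deposited raw counts per gene symbol, summed over RefSeq exons. The counting tool, its strand setting and all versions are not given in the sources used here. Without strand, overlapping and antisense genes share counts.

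The deposited counts were used as they are for all 23893 symbols, of which 5182 had no count. Samples were grouped by title. edgeR 4.0.16 (R 4.3.3) fitted 1 mean per group over 12 libraries (TMM, glmQLFit, glmQLFTest, no filter on low counts), and the interaction, the topotecan effect in each genotype and Top1 cKO-Veh minus WT-Veh were contrasts of that fit, adjusted over all genes at an FDR of 0.01. Errors of log2 values are the SE from the quasi-likelihood F. Lists were described over members with a mean of at least 1 CPM, with no set test.

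The replicate number was tested as a block: deviations from group means correlated at 0.261 to 0.485 over 18 same-number pairs and at −0.384 to −0.0494 over 36 pairs of unlike numbers. The 3 deviations of a group cancel by construction, so the negative values are not separate evidence for the block. The study describes the 3 libraries of a group as 3 cultures, and whether these came from separate litters is not given in the sources used here. No library pair of a group was a repeat of the other.

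Alternatives were the block, RLE and upper-quartile scaling, filterByExpr, DESeq2 1.42.0, limma-voom (limma 3.58.1), an FDR of 0.05, other length limits and leaving out libraries. Robust dispersion estimates and the block combined with left-out libraries or the filter were added after the data were seen. The fits were tested on simulated counts, where they made more false calls than the FDR allows, and more with the block than without it. The exception was the fit without the block, which made none where replicate effects were simulated. Both fits missed most simulated interactions of 1 on the log2 scale, the fit without the block more of them. A gene that was not called may therefore still differ. Gene spans came from GENCODE vM1 on mm9 (21013 symbols matched directly, 1046 by synonym, 1834 not), and promoters from RefSeq on GRCm38.p6 (27025 genes), read only as sequence.

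Named genes were the 12 most positive and the 9 negative that passed in both fits, up to 6 per list (called first, then by p), genes whose fall in both genotypes had an interaction p over 0.05, and Top1, Ube3a, Fos, Npas4 and Bdnf. Others are said to be chosen after their values were seen, or complete a count of 15 or fewer. The members and lists were chosen with earlier results of these data known.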

Additional observations from a re-analysis of the deposited data

Results flagged for a closer look

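Every result here was picked because the 2 genotypes differed in their response to topotecan by a test of the difference itself, edgeR's interaction contrast at an FDR of 0.01. At the level of the series, 95 genes had a positive and 9 a negative interaction.

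The largest positive values, on the log2 scale, were those of Ptgs2 (4.58), Nell1 (4.46), Nr4a1 (4.17), Npas4 (4.11), Mir8115 (3.87), Bdnf (3.72), Nptx2 (3.37), Ctnna2 (3.31), Kcnma1 (3.24), Fam150b (3.19), Cdh13 (3.09) and Dscam (2.91). Of the 12, Mir8115, Nptx2 and Cdh13 lost the call in at least 1 of the 12 fits that left out a library, and Npas4, Nptx2, Cdh13 and Mir8115 lost it with robust dispersion estimates (FDRs 0.0286, 0.21, 0.0799 and 0.0105). A filter on low counts ended the same 4 calls (FDRs 0.0118, 0.0279, 0.0216 and 0.0158). With limma-voom these 4 were not called, nor were Ptgs2 (FDR 0.0359), Kcnma1 (0.0135), Fam150b (0.0226) and Dscam (0.0223).

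The negative values were those of Sec14l3 (−3.75), Ccdc74a (−2.83), Syt17 (−2.55), Cdhr1 (−2.01), Cdo1 (−1.90), Wdr6 (−1.86), Car11 (−1.77), Klhl5 (−1.49) and Kctd12 (−1.48). Of these, Syt17 and Wdr6 were called in each of the 12 fits without 1 library, and the other 7 were not. All 9 were called with robust dispersion estimates, and 5 with a filter on low counts, which lost Sec14l3 (FDR 0.0141), Cdhr1 (0.0104), Car11 (0.0141) and Kctd12 (0.0158). DESeq2 called 8 and gave no adjusted p for Sec14l3, and limma-voom called Syt17 alone.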

How the results depend on the processing

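For the named genes, no called direction was reversed under any alternative run, whereas the sizes of the counts moved. Genes with a positive interaction numbered 95 in the reported fit, 58 with filterByExpr, 275 with DESeq2, 22 with limma-voom, 211 at an FDR of 0.05 and 48 to 159 without single libraries or replicate numbers (fewest without WT-Topot replicate 1, most without replicate 3; 51 without WT-Veh replicate 2). Genes with a negative interaction numbered 9, 6 with filterByExpr, 82 with DESeq2, 1 with limma-voom, 72 at an FDR of 0.05 and 2 to 48 without libraries. Genes with a topotecan effect in WT numbered 650, 1075 at an FDR of 0.05 and 428 to 907 without libraries. Those in Top1 cKO numbered 7, 0 with filterByExpr, 55 with DESeq2, 0 with limma-voom, 23 at an FDR of 0.05 and 1 to 98 without libraries. The long gene interaction of 0.40 was 0.76 with a limit of 200 kb, 0.24 with 50 kb and 0.32 to 0.49 without libraries. The causes were not tested.

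Of the 95 positive genes, DESeq2 called 94, filterByExpr 57 (46 of 67 long and 11 of 27 short), limma-voom 22 and robust dispersion estimates 78 (60 of 67 long and 18 of 27 short). Of the 95, 41 were called in each of the 12 fits without a single library, and of the 9, 2. RLE and upper-quartile scaling called all 104 and shifted the median of all genes by less than 0.1.

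With the replicate block, which pairs the libraries by number, the counts were 583 positive, 365 negative, 1946 in WT and 277 in Top1 cKO, and all 95 and 9 genes were called in each of 12 blocked fits without a library. The block with robust dispersion estimates called 81 of the 95 (62 long and 18 short) and all 9. Added after the data were seen, the blocked fits without a library gave 440 to 716 positive, 226 to 449 negative, 1369 to 2181 in WT and 129 to 382 in Top1 cKO genes, and the block with filterByExpr gave 226 negative and 123 in Top1 cKO. Depth limits genes with few counts, such as Ptgs2, Nell1, Sec14l3 and Mir8115, whose folds rest on 0 to 7 counts a library in the lowest group.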
